A study of Mus musculus with 8 samples.

Results

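The testis ADAM genes are 10 mouse genes of the disintegrin and metalloprotease family that are known mainly from male germ cells: *Adam1a*, *Adam1b*, *Adam2*, *Adam3*, *Adam4*, *Adam5*, *Adam18*, *Adam24*, *Adam30* and *Adam32*. They were chosen by symbol from the 24652 genes obtained after the counts of listed transcripts were summed per gene symbol. Counts were present for 7 of the 10 genes, and 4 of them (*Adam1a*, *Adam2*, *Adam4* and *Adam30*) passed the low-count filter and were tested for a difference between genotypes. *Adam2* and *Adam3* are also among the genes that the study picked from these libraries. The direction of *Adam2* here is therefore not independent evidence, and *Adam3*, without counts, has no direction here.

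ADAM proteins are membrane-anchored, with a propeptide, a metalloprotease-like domain, a disintegrin domain and a cysteine-rich region, and the propeptide and often the protease domain are cut off during maturation. Fertilin, a heterodimer on the sperm surface, is made of an alpha subunit (the ADAM1 proteins) and a beta subunit (ADAM2), and its assembly in the endoplasmic reticulum of germ cells needs chaperones such as calmegin. Loss of ADAM2 or of ADAM3 (cyritestin) is known to leave sperm unable to pass from the uterus into the oviduct. Transcripts of many testis ADAM genes are known from spermatocytes and from round spermatids, the haploid cells that follow meiosis.

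RNA-seq of whole testes at postnatal day 12 was analysed for 4 wild type and 4 *Morc2b*-/- males of mixed strain background, each library made from 1 pair of testes. In the null allele, exon 2, which holds the whole coding region of *Morc2b*, was replaced in embryonic stem cells, all cells of the animal carry the deletion, and the line descends from 1 targeted clone. The controls are wild type by their labels and by the methods, whereas the design text of the series calls them *Morc2b*+/-. P-values below measure the spread between these 8 samples.

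Counts on transcripts ranged from 27144796 to 36941755 per library. *Morc2b*, the targeted gene, had 428, 443, 24 and 1272 counts in the 4 libraries labelled wild type, and the 4 labelled *Morc2b*-/- had 10, 10, 115 and 2, so wild type replicate 3 (0.857 CPM, the count scaled to library size) stood below *Morc2b*-/- replicate 3 (3.29 CPM). Directions that rest on these libraries therefore rest on their labels. The germ cell markers also varied within genotypes. Round spermatid markers (12 genes) added up to 153 CPM in wild type replicate 1 against 3.30 to 3.71 CPM in the other wild type libraries, and 312 CPM in *Morc2b*-/- replicate 3 against 4.33 to 35.8 CPM in the other *Morc2b*-/- libraries. In each of these 2 libraries 10 of the 12 markers had counts, with *Acr* and *Gapdhs* at 0, and in the others 5 to 12 had counts. *Tnp1*, which encodes a transition protein, had 1942 and 3884 counts in those 2 high libraries and 19 to 491 counts elsewhere. The study had picked *Tnp1* and *Tnp2* of this list, and *Crisp1* of the epididymal list, from these libraries. By the study's account, zygotene spermatocytes are the most advanced germ cells at this age, and round spermatids first appear later. It found no spermatids in tubules of adult *Morc2b*-/- males. The source of the spermatid marker RNA in wild type replicate 1 and *Morc2b*-/- replicate 3 was not tested. Epididymal markers reached 250 CPM in total in wild type replicate 1, against 13.9 CPM or less in the other 7 libraries, although the labelled tissue is testis. Nearly all of that sum came from *Spink8* (118 CPM), *Crisp1* (84.4 CPM) and *Ces5a* (46.5 CPM). In that library 3 of the 10 markers had 0 counts, and *Defb20* and *Defb21* were highest in other libraries. Markers of leptotene and zygotene spermatocytes were present in every library, at 811 to 1733 CPM over 8 genes, and Sertoli cell markers summed to 7270 to 8851 CPM.

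The ADAM genes whose results turn on sequence are the fertilin genes. *Adam1a* (chr5:121968613-121971704) and *Adam1b* (chr5:121950106-121952989) lie on the minus strand of chromosome 5 in NCBIM37 (mm9), each as 1 exon without introns. Their transcripts are 87.0% identical over 2469 paired bases, and the longest identical stretch has 1082 bp. A read of 75 bases, the number of cycles of the sequencing kit, that falls in a shared stretch aligns to both genes and has no unique alignment to count: 33.7% of the 75-base windows of *Adam1a* and 36.2% of those of *Adam1b* occur in the other gene. The beginning of the coding region is a place where they differ. The first 30 coding bases, read from the NCBIM37 genome on the minus strand, are shown to mark where reads of the 2 genes can be told apart, with the 20 differing bases in capitals:
Adam1a, chr5:121971208-121971237: atgTCAGTGGCaGCAGCggggaGaGGGTTT
Adam1b, chr5:121952960-121952989: atgGAGCGACTaAAGCTggggaAaATCCCA

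*Adam2* (chr14:66646166-66696570, minus strand, 21 exons) has no 75-base window in common with the annotated protein-coding transcripts of another gene. Other transcripts were not searched. The study measured it by PCR as well, in testes other than those sequenced. It reports that all genes it chose for PCR differed at day 12 as in its sequencing. At an earlier age they were comparable between genotypes. The pair of primers is shown because it places that assay in the gene. The forward primer lies in exon 6 (chr14:66687386-66687405) and the reverse primer spans the junction of exons 7 and 8 (chr14:66677641-66678708), giving a product of 143 bp from the spliced transcript. The primers, 5′ to 3′, carry no capitals because no base is singled out:
Adam2 forward: ggtgcattactctacgccga
Adam2 reverse: gccccgatatgctcaaacatt

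*Adam2*, the fertilin beta subunit, was the testis ADAM gene with the widest range. Its level was 12.2, 15.5, 0.786 and 44.7 CPM in wild type replicates 1 to 4, and 0.582, 3.41, 8.11 and 6.50 CPM in *Morc2b*-/- replicates 1 to 4. Wild type replicates 1, 2 and 4 were above all *Morc2b*-/- libraries, wild type replicate 3 was below 3 of the 4, and the genotypes overlapped. The highest level was 76.8 times the lowest, and wild type replicate 4 alone held 61.1% of the wild type CPM.

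Wild type libraries averaged 18.3 ± 18.7 CPM of *Adam2* and *Morc2b*-/- libraries 4.65 ± 3.34 CPM (SD, n = 4 each). The fitted log2 fold change was -1.98 with a standard error of 0.98 by the quasi-likelihood test of edgeR, with an unadjusted p of 0.0745 and a Benjamini-Hochberg adjusted p of 0.9998 over all genes tested. The exact two-sided permutation test over the 8 samples gave p = 0.343, and 0.029 is the smallest p that 4 against 4 can give. The difference was thus not larger than the spread between replicates. Of the 13507 genes tested, 0 (0%) had an adjusted p under 0.05, and 249 (1.84%) had an unadjusted p under 0.05, while DESeq2 called 1 gene and limma-voom 0. *Adam2* was in neither count, although only 0.222% of the genes had a larger absolute fold change. The study used another test, with the program Cuffdiff, and did call *Adam2* at an adjusted p under 0.05. In whole testes, fewer cells of a type and less RNA per cell cannot be told apart.

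The size of the *Adam2* difference rested on wild type replicate 4. Without that library the log2 fold change was -1.03. Without the libraries labelled wild type replicate 3 and *Morc2b*-/- replicate 3, whose *Morc2b* counts go against their labels, it was -2.79 with an adjusted p of 0.877 (0.877 to 1.00 over all alternatives), and the 3 remaining libraries of each genotype did not overlap. Among the 13511 genes tested with those 6 libraries, 956 (7.08%) did not overlap. This pair was chosen after the data were seen, by *Morc2b*, and it holds the only wild type library with little *Adam2* and the *Morc2b*-/- library with the most, so the choice itself fixed the larger difference and the separation.

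**Figure D1:**
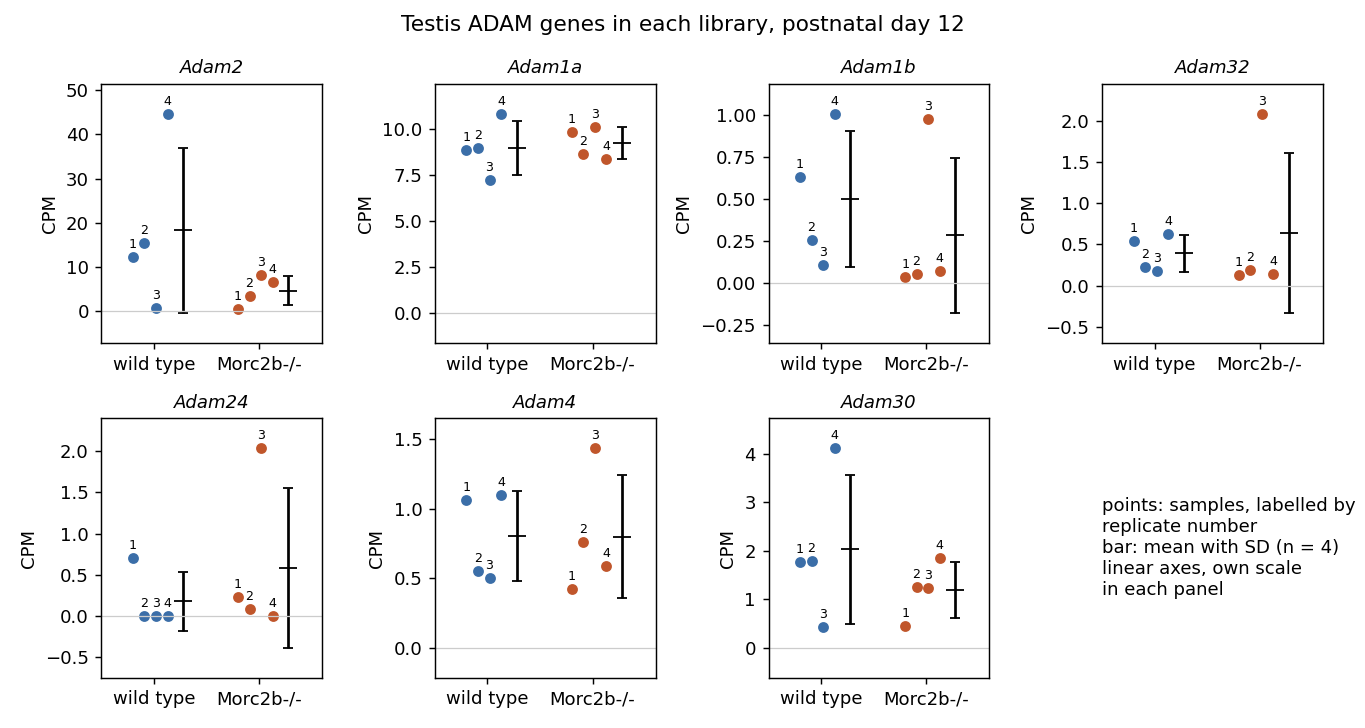
Level of the 7 testis ADAM genes with counts, as CPM (counts scaled to library size, y axis, linear, own scale in each panel), for wild type and *Morc2b*-/- libraries (x axis). Points are libraries labelled by replicate number and bars are means with SD (n = 4). *Adam2* reached 44.7 CPM in wild type replicate 4, *Adam1a* stayed between 7.21 and 10.8 CPM, and *Adam24* and *Adam32* were highest in *Morc2b*-/- replicate 3.

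*Adam2* was close to the targeted gene in CPM in the wild type libraries. The ratio of *Adam2* to *Morc2b* CPM was 1.04, 0.955, 0.917 and 1.12 in wild type replicates 1 to 4. Both genes thus had nearly the same CPM in each of them, from the library with the least of both to the one with the most. These CPM are not scaled to transcript length, so they do not show equal transcript levels. In *Morc2b*-/- replicates 1 to 4 the ratio was 1.80, 12.6, 2.46 and 94.5. The 4 *Morc2b*-/- ratios were all above the 4 wild type ratios. *Morc2b*, which carries the deletion, is the denominator of these ratios, so their difference between genotypes is no test of *Adam2*.

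Early meiotic markers varied between libraries as well. Leptotene and zygotene markers added up to 1139, 1534, 899 and 1698 CPM in wild type, and to 811, 1229, 901 and 1733 CPM in *Morc2b*-/- replicates 1 to 4. The library lowest in *Adam2* within each genotype also had the lowest sum of these markers, most of which came from *Sycp1* and *Sycp3*. Not every single marker followed the sum. In wild type, *Dmc1*, *Prdm9* and *Hormad1* were lowest in replicate 1, and in *Morc2b*-/- testes *Sycp1* was lowest in replicate 3. The other markers were lowest where the sum was. Per 1000 CPM of these markers, *Adam2* was at 10.7, 10.1, 0.874 and 26.3 CPM in wild type and at 0.718, 2.77, 9.0 and 3.75 CPM in *Morc2b*-/- testes. On this scale the genotypes overlapped too. *Morc2b*-/- replicate 4 had the highest sum of the early meiotic markers of all libraries. Its *Adam2* value per 1000 marker CPM was below those of wild type replicates 1, 2 and 4.

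Markers of pachytene spermatocytes, the next stage of meiosis, summed to 324, 303, 240 and 516 CPM in wild type and to 239, 260, 373 and 257 CPM in *Morc2b*-/- replicates 1 to 4, over 12 genes of which the study had picked *Piwil1* and *Ybx2* from these libraries. Wild type replicate 4, with the most *Adam2*, also had the highest sum of these markers, and wild type replicate 3 and *Morc2b*-/- replicate 1, with the least *Adam2*, had the lowest sums. *Piwil1* (133 CPM) and *Ldhc* (111 CPM) gave much of the sum of wild type replicate 4. *Pgk2*, *Spag6*, *Acrv1* and *Cst13* were instead highest in *Morc2b*-/- replicate 3, and *Aurka* in *Morc2b*-/- replicate 2. The other markers on this list were highest in wild type replicate 4. The part of germ cell stage in the *Adam2* values was not tested.

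**Figure D2:**
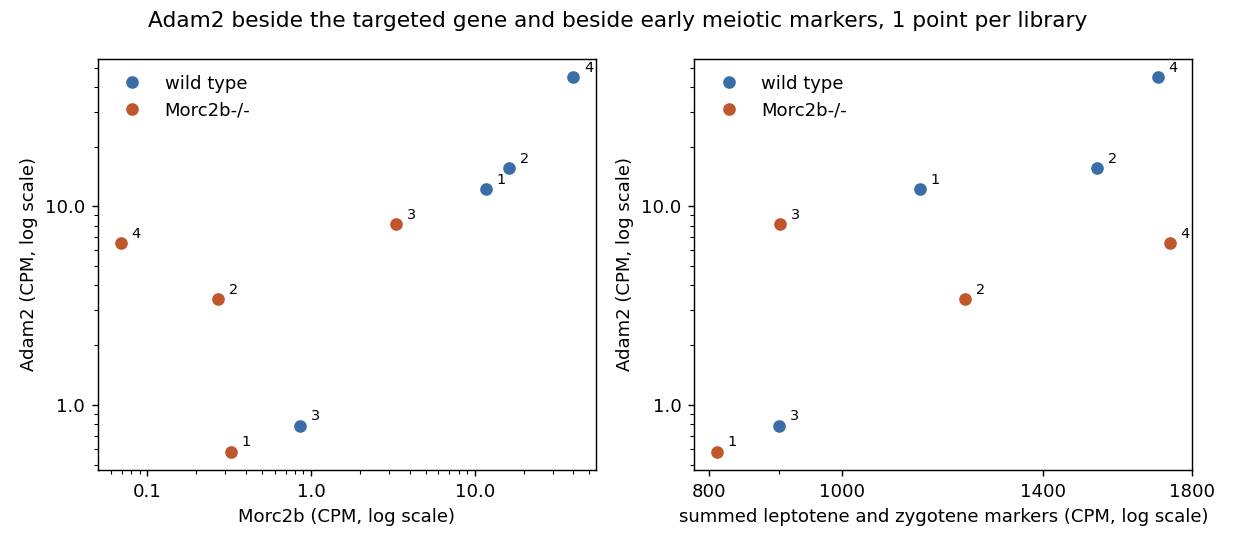
*Adam2* level (CPM, log scale, y axis) in each library against the level of *Morc2b* (CPM, log scale, left) and against the summed level of 8 leptotene and zygotene markers (CPM, log scale, right). Points are libraries labelled by replicate number. On the left the 4 wild type points lie where both CPM values, not scaled to transcript length, are nearly equal, with ratios of 0.917 to 1.12. On the right *Morc2b*-/- replicate 4 has 1733 CPM of markers with 6.50 CPM of *Adam2*.

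*Adam1a* encodes the ADAM1 subunit that pairs with ADAM2 in the endoplasmic reticulum of testicular germ cells. Its level was 8.83, 8.95, 7.21 and 10.8 CPM in wild type and 9.79, 8.60, 10.1 and 8.35 CPM in *Morc2b*-/- replicates 1 to 4. These values were close together in all libraries, with a highest level 1.50 times the lowest, and the genotypes overlapped. Wild type libraries averaged 8.95 ± 1.47 CPM and *Morc2b*-/- libraries 9.21 ± 0.858 CPM (SD, n = 4 each). The log2 difference was 0.04 (standard error 0.14; edgeR adjusted p 0.9998; exact permutation p = 0.714), and its sign turned to -0.05 without wild type replicate 3 and to -0.01 without *Morc2b*-/- replicate 3.

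The 2 fertilin subunit genes thus behaved differently across libraries: *Adam1a* ranged over 1.50-fold where *Adam2* ranged over 76.8-fold. Where *Adam2* was under 1 CPM, *Adam1a* was at 7.21 CPM (wild type replicate 3) and 9.79 CPM (*Morc2b*-/- replicate 1). Of its 3092 exon bases, 771 also belong to exons of *Mapkapk5*, a kinase gene on the same strand that was at 101 to 116 CPM, and reads from those bases would be in the count of neither gene if both are listed over them.

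*Adam1b* encodes the ADAM1 subunit that reaches the surface of mature sperm with ADAM2. Wild type replicates 1 to 4 had 23, 7, 3 and 32 counts of it and their *Morc2b*-/- counterparts by number 1, 2, 34 and 2, that is, 0.627, 0.257, 0.107 and 1.01 CPM, and 0.0323, 0.0541, 0.974 and 0.0688 CPM. Wild type replicates 1 and 4 and *Morc2b*-/- replicate 3 were high, and the genotypes overlapped through *Morc2b*-/- replicate 3 alone. Averages were 0.499 ± 0.402 CPM for wild type and 0.282 ± 0.461 CPM for *Morc2b*-/- (SD, n = 4 each), with an exact permutation p of 0.257, and the gene did not pass the low-count filter.

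*Morc2b*-/- replicate 3 held 86.3% of the *Adam1b* CPM of its genotype and was the library with 312 CPM of round spermatid markers. The other 3 *Morc2b*-/- libraries had 1 or 2 counts each, fewer than the 3 counts that a count of 0 allows. *Adam1b* made up 0.329% to 8.81% of the counts of both *Adam1* genes. Counts of the pair are uncertain because the identical stretches are in neither count.

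Comparison of the 300-base promoters that RefSeq (GRCm38.p6) gives for *Adam1a* and *Adam1b*, the only 2 of the 10 genes found in that table, showed 70.7% identity over paired bases. Neither held TGACGT (part of the cyclic AMP response element), GTTGCCA (part of the X box) or AACGG (the MYB core) on either strand. These letters occur in 7.51%, 4.38% and 17.4% of the 32851 promoters in the table, so each is absent from most promoters.

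*Adam3*, *Adam5*, *Adam18* and *Adam32* lie side by side on the minus strand of chromosome 8, from chr8:25712718 to 26059276 (346559 bp), with 2469 bp between *Adam18* and *Adam3*, 1240 bp between *Adam3* and *Adam5* and 11770 bp between *Adam5* and *Adam32*. They have 20 to 22 exons in their longest annotated transcripts. ADAM3 is needed for sperm to enter the oviduct, ADAM5 and ADAM18 (tMDC III) are known from sperm, and *Adam32* is a testis gene of the same subgroup. No 75-base window of the 4 genes occurs in another gene's protein-coding transcripts.

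*Adam3*, *Adam5* and *Adam18* had 0 counts in every library. They are listed with 2, 4 and 2 transcripts, and since a read lying on several listed transcripts enters no count, the zeros are no measurement of their expression. All 3 members with 0 counts were among the 4 genes listed with more than 1 transcript, and all 6 genes listed with 1 transcript had counts. Over the whole series, 22.3% of genes with more than 1 transcript and 17.1% of genes with 1 transcript had 0 counts. Of the uniquely aligned reads of a library, 26.8% to 28.8% were set aside for lying on several transcripts.

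*Adam32* was counted on only 1 of its 2 listed transcripts, where the wild type libraries had 20, 6, 5 and 20 counts, and the *Morc2b*-/- libraries had 4, 7, 73 and 4. In CPM these are 0.545, 0.220, 0.179 and 0.629, and 0.129, 0.189, 2.09 and 0.138. By the same counting rule, reads that lie on both transcripts are not among them. *Morc2b*-/- replicate 3 was the highest library and held 82.1% of the CPM of its genotype, and the genotypes overlapped. Averages were 0.393 ± 0.227 CPM for wild type and 0.637 ± 0.970 CPM for *Morc2b*-/- (SD, n = 4 each; exact permutation p = 0.886). Without wild type replicate 1 and *Morc2b*-/- replicate 3 they were 0.342 ± 0.249 and 0.152 ± 0.0325 CPM (SD, n = 3 each), so the order of the means turned.

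*Adam24* (testase 1, on the plus strand at chr8:41760448-41767553, with its coding region in 1 of 2 exons) encodes a sperm ADAM that keeps a metalloprotease domain. Its counts were 26, 0, 0 and 0 in wild type (replicates 1 to 4) and 7, 3, 71 and 0 in *Morc2b*-/- libraries. *Morc2b*-/- replicate 3 reached 2.03 CPM and wild type replicate 1 reached 0.709 CPM. These are the 2 libraries with the most round spermatid marker RNA. The 4 libraries with 0 counts (wild type replicates 2 to 4 and *Morc2b*-/- replicate 4) were the 4 with the least, at 3.30 to 4.33 CPM. A count of 0 allows up to 3 counts, which is 0.0926 to 0.111 CPM in those libraries.

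The genotype means of *Adam24*, 0.177 ± 0.354 CPM in wild type and 0.585 ± 0.970 CPM in *Morc2b*-/- testes (SD, n = 4 each), overlapped, with an exact permutation p of 0.543. *Morc2b*-/- replicate 3 held 86.9% of the CPM of its genotype. Without that library and wild type replicate 1, *Adam24* was at 0 in wild type and at 0.102 ± 0.115 CPM in *Morc2b*-/- testes (SD, n = 3).

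The same libraries were the high ones for 10 other testis ADAM genes (*Adam6a*, *Adam6b*, *Adam20*, *Adam21*, *Adam25*, *Adam26a*, *Adam26b*, *Adam29*, *Adam34* and *Adam39*), all listed with 1 transcript. Their counts added up to 111, 8, 10 and 17 in the wild type libraries, while the *Morc2b*-/- libraries had 27, 41, 259 and 8. All 10 were highest in *Morc2b*-/- replicate 3, and 76.9% of their counts came from that library and wild type replicate 1. Only *Adam21* passed the low-count filter, and its log2 difference was 0.05 (standard error 0.43; edgeR adjusted p 0.9998). The part of spermatid RNA in these counts, and in those of *Adam24*, *Adam32* and *Adam1b*, was not tested.

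**Figure D3:**
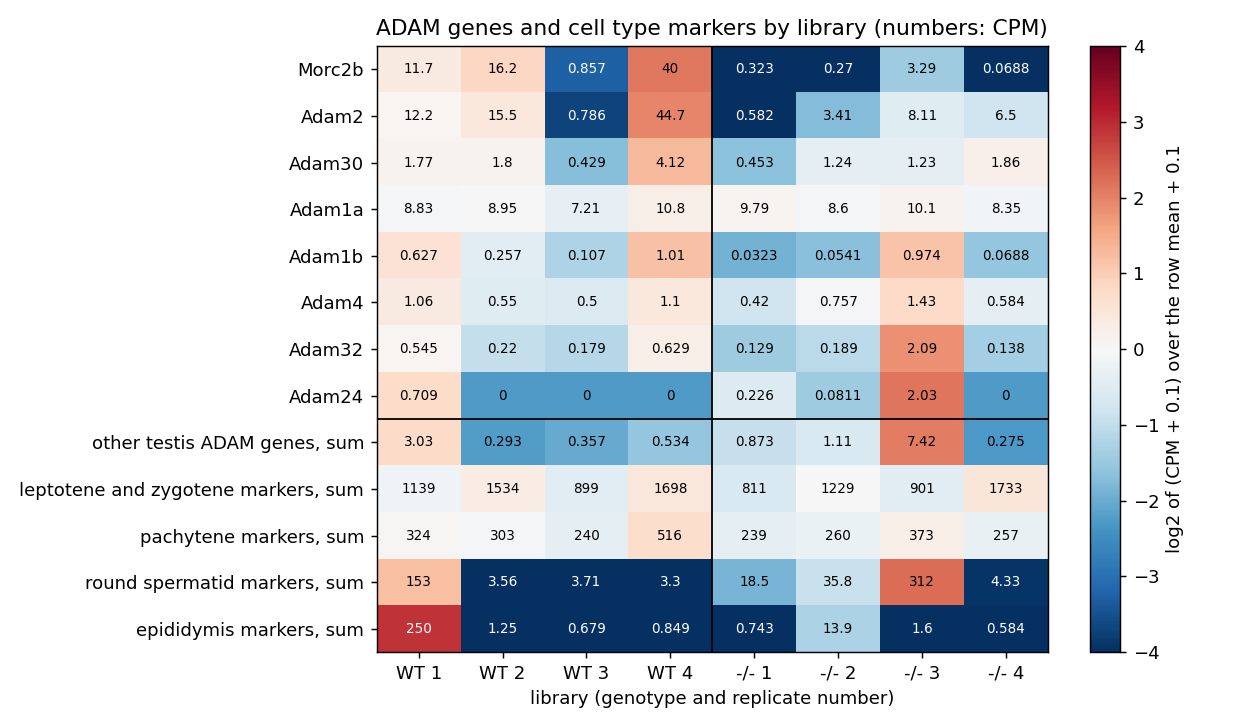
Level of *Morc2b*, of the 7 ADAM genes with counts and of summed gene lists (rows) in each library (columns, WT for wild type and -/- for *Morc2b*-/-, with replicate number). Numbers are CPM, and colour is the log2 of CPM plus 0.1 over the row mean plus 0.1, drawn from -4 to 4. *Adam24*, *Adam32*, the other testis ADAM genes and the round spermatid markers share their highest column, *Morc2b*-/- replicate 3, whereas *Adam2* and *Adam30* are highest in wild type replicate 4.

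*Adam30* (chr3:97964735-97967096, plus strand, 1 exon) is a testis gene whose protein keeps the zinc-binding site of an active metalloprotease. It was at 1.77, 1.80, 0.429 and 4.12 CPM in wild type and at 0.453, 1.24, 1.23 and 1.86 CPM in *Morc2b*-/- replicates 1 to 4. As for *Adam2*, wild type replicate 4 was the highest library and wild type replicate 3 and *Morc2b*-/- replicate 1 the lowest, and the genotypes overlapped. Wild type libraries averaged 2.03 ± 1.53 CPM and *Morc2b*-/- libraries 1.20 ± 0.575 CPM (SD, n = 4 each). The log2 difference was -0.76 (standard error 0.60; edgeR unadjusted p 0.236, adjusted p 0.9998; exact permutation p = 0.514), and -0.16 without wild type replicate 4.

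The ratio of *Adam2* to *Adam30* CPM nevertheless changed between libraries, from 1.29 in *Morc2b*-/- replicate 1 to 10.9 in wild type replicate 4. *Adam2* therefore varied more than *Adam30*, whose highest level was 9.61 times its lowest.

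*Adam4* (chr12:82520430-82522933, minus strand, within the spans of *Cox16* and *Synj2bp*, with which it shares no exon bases) was at 1.06, 0.550, 0.500 and 1.10 CPM in wild type and at 0.420, 0.757, 1.43 and 0.584 CPM in *Morc2b*-/- replicates 1 to 4. Of its 75-base windows, 8.15% also occur in *Gm4787*. The highest library was again *Morc2b*-/- replicate 3, and the genotypes overlapped. Averages were 0.803 ± 0.322 CPM for wild type and 0.799 ± 0.444 CPM for *Morc2b*-/- (SD, n = 4 each), and the log2 fold change was -0.01 (standard error 0.42; edgeR adjusted p 0.9998; exact permutation p = 0.943).

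Per kb of the longest annotated transcript, the order of mean levels in wild type was *Adam2* (7.17 ± 7.33 CPM per kb), *Adam1a* (2.90 ± 0.476), *Adam30* (0.859 ± 0.649), *Adam4* (0.321 ± 0.129), *Adam1b* (0.173 ± 0.139), *Adam32* (0.160 ± 0.0926) and *Adam24* (0.0617 ± 0.123; SD, n = 4 for each). Only *Adam1a* and *Adam30* had ranges that did not overlap among neighbours in this order. *Adam2* was above *Adam1a* in 3 of 4 wild type libraries. In *Morc2b*-/- testes *Adam1a* led (2.98 ± 0.278 CPM per kb), followed by *Adam2* (1.82 ± 1.31) and *Adam30* (0.506 ± 0.244), and *Adam1a* was above *Adam2* in 4 of 4 libraries. Levels of *Adam1a*, *Adam1b*, *Adam4* and *Adam32* per kb leave out reads shared with another gene or transcript.

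Of the 7 genes with counts, 4 (*Adam1b*, *Adam2*, *Adam4* and *Adam30*) had a lower mean in *Morc2b*-/- testes and 3 (*Adam1a*, *Adam24* and *Adam32*) a higher one. Without *Morc2b*-/- replicate 3 all 7 means were lower in *Morc2b*-/- testes, so the higher means of those 3 genes rested on that library. It was the highest *Morc2b*-/- library for all of the 7 but *Adam30*, so leaving it out lowers their means by construction. Without wild type replicate 1 as well, 6 were lower, and *Adam24* was higher (0.102 against 0 CPM). The same share over all genes was not computed. Among the 4 tested genes, 3 had a log2 fold change below 0, with a median of -0.39 over the 4. Of all genes tested, 49.2% were below 0, with a median of 0.00. None of the 4 reached an adjusted or unadjusted edgeR p under 0.05, and none had genotypes that did not overlap, as 1.29% of all genes tested did.

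The ADAM genes of somatic or epididymal cells were represented by 14 genes, of which 6 passed the filter and 2 (*Adam9* and *Adam33*) had 0 counts. None of the 6 passed the test, the median log2 fold change was -0.07, and no unadjusted edgeR p was under 0.05. *Adam10*, the widely expressed sheddase of Notch and other receptors, averaged 403 ± 33.2 CPM for wild type and 432 ± 6.71 CPM for *Morc2b*-/- (SD, n = 4 each; log2 fold change 0.10, standard error 0.06). *Adam12*, *Adam23* and *Adam15* had log2 fold changes of -0.17, 0.01 and 0.17. *Adam10* was thus more abundant in counts than any testis ADAM gene in each library.

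The list drawn up around the maturation of fertilin and ADAM3 held 17 genes, general chaperones among them. A place on it does not mean that a gene is needed for that maturation. Of the 17, 11 passed the filter and 3 had 0 counts, including *Clgn* (calmegin), which is listed with 3 transcripts and was also picked by the study from these libraries. None of the 11 passed the test, 5 had a log2 fold change below 0, and the median was 0.04. *Calr*, a chaperone of the endoplasmic reticulum, averaged 1895 ± 294 CPM for wild type and 1807 ± 330 CPM for *Morc2b*-/- (SD, n = 4 each; log2 fold change -0.07, standard error 0.15). *Tex101*, a germ cell surface protein needed for ADAM3 on sperm, was at 704 ± 185 and 631 ± 194 CPM (log2 fold change -0.16, standard error 0.25). *Ly6k*, a partner of TEX101, and *Pgap1*, which remodels lipid anchors, had log2 fold changes of -0.18 and 0.04.

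Genes of sperm-egg binding and fusion were represented by 16 genes in the files, of which 6 passed the filter and 3 had 0 counts. None of the 6 passed the test, and their median log2 fold change was -0.12. *Spaca6*, needed for sperm-egg fusion, averaged 20.1 ± 2.15 CPM for wild type and 17.3 ± 5.32 CPM for *Morc2b*-/- (SD, n = 4 each; log2 fold change -0.22, standard error 0.20). *Spesp1*, *Izumo4* and *Acrbp* had log2 fold changes of -0.11, -0.35 and -0.13. None of the genes tested in these lists had an unadjusted edgeR p under 0.05.

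**Figure D4:**
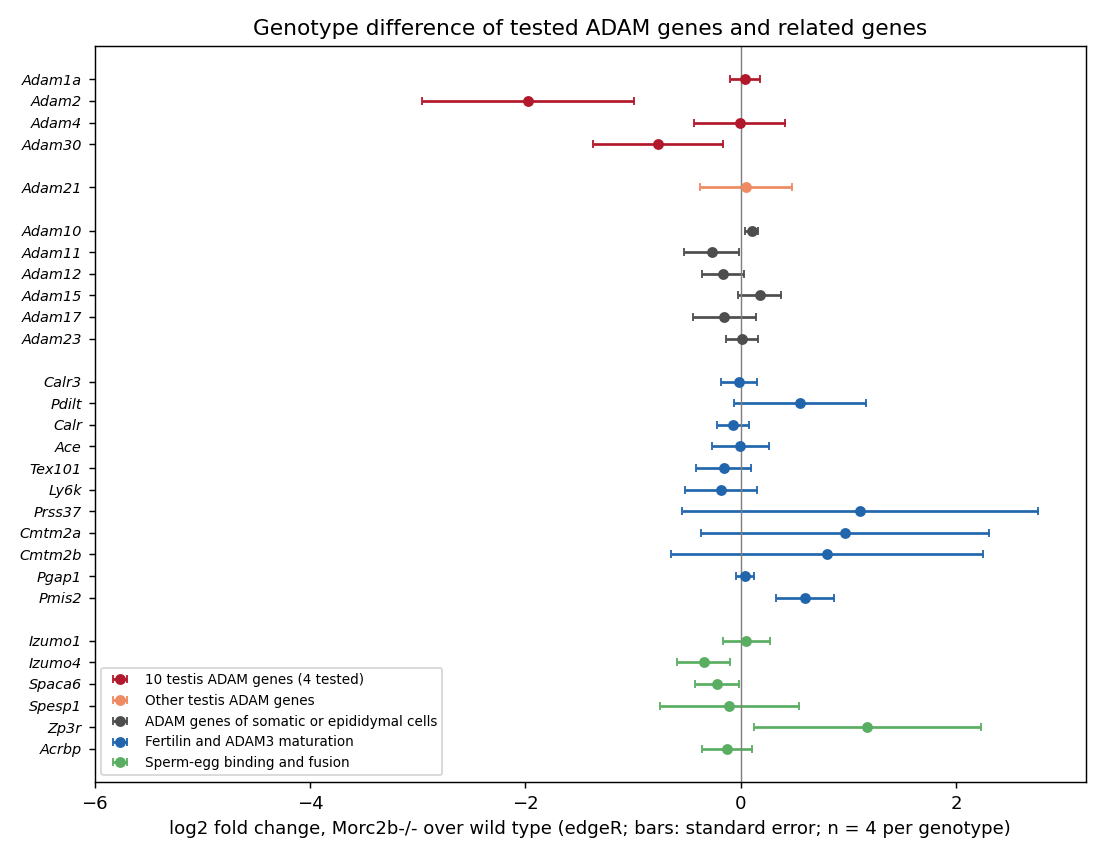
Log2 fold change of *Morc2b*-/- over wild type (x axis, edgeR, negative values lower in *Morc2b*-/-) with standard error for the tested testis ADAM genes and the tested genes of 4 related lists (y axis). *Adam2* at -1.98 lies farthest from 0 and has a standard error of 0.98, and none of the genes drawn had an adjusted p under 0.05.

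The genes whose levels across the 8 libraries were most like those of each tested ADAM gene with a mean of at least 1 CPM were sought among the other 13506 tested genes, by Pearson's r of log2 CPM. For *Adam2* they were *Ankrd36* (r = 0.989, Spearman's rho 1.00), *Ndufaf3* (r = 0.988, rho 0.952) and *Ccdc60* (r = 0.987, rho 0.976). Without the 2 libraries farthest from the median of *Adam2*, r was 0.985, 0.977 and 0.952. The log2 fold changes of these 3 genes were -1.64, -0.44 and -1.16.

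For *Adam30* the closest genes were *Ift22* (r = 0.994, rho 0.976), *Mroh8* (r = 0.992, rho 0.952) and *2610301B20Rik* (r = 0.991, rho 0.929). For *Adam1a* they were *Kpnb1* (r = 0.939, rho 0.833), *Cct6a* (r = 0.936, rho 0.881) and *Tsn* (r = 0.922, rho 1.00), with r of 0.768, 0.865 and 0.897 without the 2 farthest libraries. The closest genes of *Adam1a* were thus less like it than those of *Adam2* and *Adam30* were. All values come from the same 8 libraries, which differ in depth and in germ cell markers, the genes were picked as the highest of 13506, and no test was made.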

How the data were processed

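Testes of 4 wild type and 4 *Morc2b*-/- males at postnatal day 12 were profiled by stranded mRNA sequencing. Adapter trimming, removal of poor reads and Tophat alignment to NCBI37/mm9 were done by the authors, who deposited raw read counts per RefSeq transcript, sample by sample and without normalisation. Which program counted the reads, with which strand setting and annotation release, is not given in the sources used here. Reads on several listed transcripts or with several alignments are tallied apart and are in no count.

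Of 35819 transcripts, 35517 were matched to a gene symbol and 302, holding 0.504% of the counts, stayed as separate units. Counts were summed per symbol into 24652 genes. Tally lines were left out of library sizes. Depth was 27144796 to 36941755 counts per sample. Over genes, chi-square per degree of freedom was at least 7.38 for every pair of samples, so no library was counted as a repeat of another. Floors of 3 counts cover counting error only.

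Genotypes were compared in R 4.3.3 with edgeR 4.0.16 (TMM normalisation, filterByExpr, glmQLFit and glmQLFTest, genotype only, Benjamini-Hochberg adjustment over 13507 genes). CPM are counts scaled to TMM-adjusted library sizes. Exact permutation tests used log2 CPM with a prior count of 2, on 7 genes, without adjustment over them. Alternatives were RLE size factors, DESeq2 1.42.0, limma-voom (limma 3.58.1), dropping the low-count filter, a minimum of 10 counts in each sample, the largest transcript per gene, the replicate number as a block, exon unions as length, and leaving out each sample. Leaving out 2 pairs of samples was added after the data were seen. The procedure was tested on simulated data with 200 genes of 13507 changed 8-fold, of which edgeR recovered 98.0%. The changed genes were drawn from those with higher counts, and genes varied independently of each other. The rate therefore does not tell how often a change in an ADAM gene would be found here.

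The members and lists were chosen with earlier results of these data known. All 10 ADAM genes are named, then at most the 4 tested genes with the highest mean CPM of each related list, and the 3 genes most like each tested member with a mean of at least 1 CPM. *Tnp1*, *Tnp2*, *Acr*, *Gapdhs*, *Mapkapk5*, *Gm4787*, *Cox16* and *Synj2bp* were named after their values were seen. So were the single leptotene, zygotene, pachytene and epididymal markers, and list genes with 0 counts. Annotation is GENCODE vM1 on NCBIM37, and promoters are from RefSeq. Protein sequences were not analysed here. Figures were drawn with matplotlib 3.10.9.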

Additional observations from a re-analysis of the deposited data

Results flagged for a closer look

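In groups of 4 libraries, 1 library stood far from the other 3 in 13 of 42 groups examined. The cutoff would flag about 1 in 20 groups of independent, normally distributed values. Several of these values lie near 0 and the groups share the same libraries, so that rate is no measure of chance here. *Adam1b* reached 0.974 CPM in *Morc2b*-/- replicate 3 against 0.0323 to 0.0688 CPM in the others of that genotype. *Adam32* reached 2.09 CPM in the same library against 0.129 to 0.189 CPM. *Adam24* stood apart in both genotypes, in wild type replicate 1 (0.709 CPM) and in *Morc2b*-/- replicate 3 (2.03 CPM).

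The summed level of the 10 other testis ADAM genes stood apart in the same libraries, with 3.03 CPM for wild type replicate 1 and 7.42 CPM for *Morc2b*-/- replicate 3. So did the round spermatid markers, at 152.9 and 311.7 CPM. Pachytene markers stood apart at 373.2 CPM in *Morc2b*-/- replicate 3.

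The remaining 4 groups concern other cells of the testis or its surroundings. Peritubular myoid markers reached 1631 CPM and epididymis markers 249.7 CPM in wild type replicate 1. Epididymis markers also reached 13.9 CPM in *Morc2b*-/- replicate 2, and macrophage markers 79.7 CPM in *Morc2b*-/- replicate 1.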

How the results depend on the processing

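*Adam2* and *Adam30* were lower in *Morc2b*-/- testes under all 9 alternatives other than leaving out 1 library, with log2 fold changes of -2.79 to -1.53 and -1.11 to -0.56 and adjusted p of 0.877 or more. *Adam4* kept its sign under the same 9, down to -0.62 without the second pair below. The sign of *Adam1a* turned without wild type replicate 1 and *Morc2b*-/- replicate 3 (-0.02) and without wild type replicate 3 and *Morc2b*-/- replicate 3 (-0.10), pairs chosen after seeing the data, the second by *Morc2b*, which ran with *Adam2* in wild type. Without the second pair, 421 genes had an unadjusted edgeR p under 0.05. All 7 ADAM genes with counts then had a lower mean in *Morc2b*-/- testes, and the same share over all genes was not computed. DESeq2 called 1 gene at an adjusted p under 0.05 (*Pkmyt1*, lower, named after its value was seen), where edgeR called 0. Genes at an unadjusted p under 0.05 numbered 422 without the low-count filter. When libraries were left out in turn, they numbered 204 to 504, 0 genes were called each time, and the log2 fold change was -2.39 to -1.03 for *Adam2*, -1.10 to -0.16 for *Adam30*, -0.05 to 0.14 for *Adam1a* and -0.45 to 0.20 for *Adam4*. The number of ADAM genes with a lower mean was 3 to 7, and it was 7 without *Morc2b*-/- replicate 3, the highest *Morc2b*-/- library for all of these but *Adam30*. Summed over the 10 genes, the mean level was 31.1 ± 22.4 CPM in wild type and 17.4 ± 6.21 CPM in *Morc2b*-/- testes (SD, n = 4 each), with ranges of 20.8 to 38.4 and 14.5 to 19.2 CPM when libraries were left out. The cause of these shifts was not tested.

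Replicate numbers were not treated as pairs in the main fit. The correlation of same-numbered deviations was -0.32 to 0.45, over 0.1 in 2 of 4 pairs, and 4 of 8 samples correlated best with their own number. So few values cannot exclude a pairing or batch by number. A fit with replicate block called 0 genes, 572 had an unadjusted p under 0.05, and the log2 fold change of *Adam2* was -1.89 in it. Counts of a few reads limit *Adam1b*, *Adam24* and *Adam32*, and *Adam3*, *Adam5* and *Adam18* could not be measured from these counts.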
